A study of Mus musculus with 39 samples.

Results

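The genes described here encode the laminin chains, nidogens and heparan sulfate proteoglycans that build the vascular basement membrane. They are 10 of the 24946 genes measured and were taken by symbol: Lama2, Lama4, Lama5, Lamb1, Lamb2, Lamc1, Nid1, Nid2, Hspg2 and Agrn. All 10 passed the filter on low values in every comparison. RNA-seq libraries came from C57BL/6 pups, from cells that PECAM antibody beads pulled out of dissociated whole brain. Smad4 mutants (Smad4f/f; Cdh5-CreERT2) were set against wild types (Smad4f/f), Alk1 mutants (Alk1f/f; Cdh5-CreERT2) against wild types (Alk1f/f) and Eng mutants (Engf/f; Cdh5-CreERT2) against wild types (Engf/f), with 5 libraries in each group. Cdh5-CreERT2 is a tamoxifen-inducible recombinase driven by the promoter of the endothelial cadherin gene. Mutants carried it and wild types did not, so the floxed gene was common to both and Cre was not. Further Smad4 pups gave 3 libraries each of LC10-treated mutants, IgG-treated mutants and IgG-treated wild types, LC10 being an inhibitor of angiopoietin-2. Smad4 and Eng pups received 300 µg tamoxifen daily from postnatal day 1 to 3 and were sampled on day 7. Alk1 pups received a single dose of 100 µg on day 4 and were sampled on day 6. Antibody was injected as 30 µg on days 2 and 4. The labels do not say whether each library came from a separate pup, so every p-value measures only the spread between these libraries.

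A laminin is a trimer of 1 alpha, 1 beta and 1 gamma chain. Laminins assemble into a sheet beneath the endothelium, nidogens tie that sheet to the collagen IV network, and perlecan and agrin add heparan sulfate chains that hold growth factors. In brain vessels the endothelium is known for laminins with alpha4 and alpha5 chains, whereas alpha1 and alpha2 chains are known from the outer layers made by meningeal, mural and astrocytic cells.

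The 39 libraries each had 16105 to 17683 genes above 0. Values below are normalized expression values, and changes are log2 fold changes with their SE from limma, called at a Benjamini-Hochberg adjusted p under 0.05 over all genes tested. Of 14 endothelial markers none was at 0 in any group, led by Cldn5 and Kdr. Smad4 lay at 1676 to 1916 in Smad4 mutants and at 5258 to 5903 in wild types, at 1535 to 1708 in LC10-treated mutants, at 1817 to 3030 in IgG-treated mutants and at 5625 to 5975 in IgG-treated wild types. Eng lay at 8613 to 11508 in Eng mutants and at 60151 to 70402 in wild types. Acvrl1, the gene of Alk1, overlapped at 12441 to 15809 in Alk1 mutants and 14197 to 16755 in wild types, so it does not check those labels. Some column names carry a library code whose meaning is not given. For Lama4, Lamb1, Lamc1, Nid1 and Nid2 the 2 Smad4 mutants with code L146 lay above the 3 with no code, while their wild types did not. For Hspg2 the mutants with that code (72675 and 78215) lay among the others. For Agrn the wild types with that code (94802 and 93701) also lay above those with no code (79452, 88538 and 81553). The change of each member in that cohort, and the summed values below, are thus also given without that code. That is a setting of 3 libraries against 3.

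Of the 10 members 6 were called higher and 2 lower in Smad4 mutants, where 17.2% and 15.8% of all tested genes were called higher and lower. Alk1 mutants had 4 higher and 3 lower, beside 17.5% and 15.7% of all genes. Eng mutants had 4 higher and 2 lower, beside 12.4% and 9.08%. IgG-treated Smad4 mutants had 5 higher and 2 lower, beside 13.2% and 10.8%. The median log2 fold change of the members was 0.50, 0.32, 0.11 and 0.19 in these 4 comparisons, against -0.01, -0.01, -0.01 and 0.00 for all genes. With each library divided by its total, the share of all calls that were higher dropped to 37.2% in the Smad4 and 41.1% in the Alk1 cohort, against 52.1% and 52.7% with the values as deposited. Under that scaling 6 members were called higher and 3 lower in Smad4 mutants, Agrn (-0.23, limma adjusted p = 0.0157) being the added one, and 4 and 3 in Alk1 mutants. All mutant libraries lay above all wild types for 6 members in the Smad4 cohort (12.6% of all genes), 4 in the Alk1 cohort (13.3%), 3 in the Eng cohort (10.2%) and 5 with IgG (22.2%). They lay below for 2 (10.2% of all genes), 2 (11.2%), 1 (6.37%) and 2 (18.7%).

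**Figure D1:**
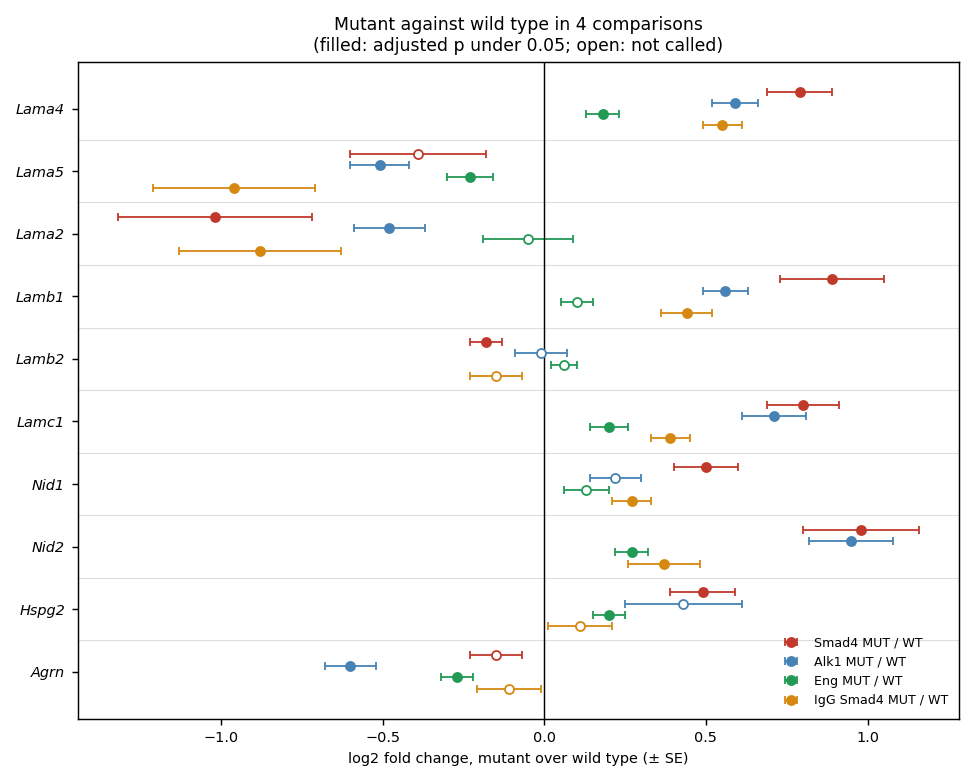
Log2 fold change (x axis, mutant over wild type, ± SE from limma) of each member in the Smad4, Alk1, Eng and IgG-treated Smad4 comparisons, with filled points for an adjusted p under 0.05. Lama4, Lamc1 and Nid2 lie right of 0 and filled in all 4 comparisons, and Lama5 lies left of 0 in all 4 but is open in the untreated Smad4 cohort.

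RefSeq promoter windows (GRCm38.p6) of 250 bases before the start were found for 7 members, and 5 are shown, with rising and falling members side by side. Lamb1 (chr12:31265043-31265292, plus strand) and Nid1 (chr13:13437352-13437601, plus strand) belong to the co-varying set, Hspg2 (chr4:137468553-137468802, plus strand) was higher, and Lama5 (chr2:180225860-180226109, minus strand) and Agrn (chr4:156197489-156197738, minus strand) were lower where called. Capitals mark GGCGCC, a GC-rich element known for binding of BMP-activated Smad proteins. It was absent from the Nid1 window and from those of Lama2 and Lamb2, lower where called, which are not shown.
Lamb1: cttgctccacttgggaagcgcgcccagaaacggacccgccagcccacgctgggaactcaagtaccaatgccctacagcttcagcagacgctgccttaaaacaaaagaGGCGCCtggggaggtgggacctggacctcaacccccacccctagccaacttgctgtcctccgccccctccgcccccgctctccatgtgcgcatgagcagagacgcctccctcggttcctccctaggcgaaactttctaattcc
Nid1: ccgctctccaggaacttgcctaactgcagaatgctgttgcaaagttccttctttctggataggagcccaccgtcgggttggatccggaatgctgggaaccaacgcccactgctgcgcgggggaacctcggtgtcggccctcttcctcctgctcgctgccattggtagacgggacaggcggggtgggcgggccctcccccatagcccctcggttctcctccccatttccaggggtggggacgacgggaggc
Hspg2: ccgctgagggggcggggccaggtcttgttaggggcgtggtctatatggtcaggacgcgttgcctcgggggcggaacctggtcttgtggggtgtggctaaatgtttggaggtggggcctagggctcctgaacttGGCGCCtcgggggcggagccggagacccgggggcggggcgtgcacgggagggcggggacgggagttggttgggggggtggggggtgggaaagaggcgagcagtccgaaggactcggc
Lama5: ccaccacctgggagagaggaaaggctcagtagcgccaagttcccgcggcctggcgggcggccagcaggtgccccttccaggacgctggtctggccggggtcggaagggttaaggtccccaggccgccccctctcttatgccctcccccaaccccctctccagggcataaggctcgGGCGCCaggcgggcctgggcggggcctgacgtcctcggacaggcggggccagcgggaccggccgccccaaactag
Agrn: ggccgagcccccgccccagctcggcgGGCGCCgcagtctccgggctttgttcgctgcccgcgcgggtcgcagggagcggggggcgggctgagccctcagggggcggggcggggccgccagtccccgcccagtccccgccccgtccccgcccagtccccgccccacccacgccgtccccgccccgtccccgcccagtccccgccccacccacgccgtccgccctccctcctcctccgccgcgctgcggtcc
GGCGCC, which reads the same on both strands, lay at position -143 of Lamb1, -117 of Hspg2, -75 of Lama5 and -224 of Agrn, counted back from the start. It was in 4 of the 7 windows, against 9.54% of 27025 RefSeq promoters cut the same way, and these 4 windows were 62.0 to 83.6% G and C, against a median of 52.0%. Of the 4 genes, Lamb1 and Hspg2 were higher and Lama5 and Agrn lower where called, and the letters were thus found with both directions. The palindrome GTCTAGAC and the letters ACGTG, the core of the hypoxia response element, searched on both strands, were in none of the 7 windows and in 0.174% and 16.6% of all promoters.

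Lama4 encodes the alpha4 chain of endothelial laminin and lies on chromosome 10 (38965515 to 39110188, GRCm38, GENCODE M21 annotation). Lama4 had 40724, 41739, 39577, 55850 and 51425 in Smad4 mutants, against 25060, 27570, 25498, 28051 and 25073 in wild types. It had 42256, 47451, 50608, 46702 and 42287 in Alk1 mutants, against 28361, 31303, 31803, 29851 and 30911 in wild types. Every mutant library lay above every wild type in both cohorts. The log2 fold change was 0.79 ± 0.10 (limma adjusted p = 0.000182) in Smad4 mutants and 0.59 ± 0.07 (limma adjusted p = 6.73e-05) in Alk1 mutants, and 0.64 in the Smad4 libraries with no code. In the Eng cohort Lama4 had 40335, 38111, 42525, 41366 and 43186 in Eng mutants, against 35036, 37710, 35353, 34904 and 38557 in wild types. There the groups overlapped, since the lowest mutant library lay below the highest wild type, and the change of 0.18 ± 0.05 (limma adjusted p = 0.0158) was the smallest of the 4. Lama4 had 35850, 36001 and 40023 in IgG-treated Smad4 mutants, against 25627, 24548 and 25969 in IgG-treated wild types. That is a change of 0.55 ± 0.06 (limma adjusted p = 0.000492) with no overlap.

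Lama5 encodes the alpha5 chain, the other endothelial alpha chain (chromosome 2, 180176373 to 180225859). It had 9388, 10124, 9783, 7138 and 5097 in Smad4 mutants, against 9567, 11304, 14250, 11033 and 7576 in wild types. The Smad4 groups overlapped, with the code L146 mutants lowest, and the change of -0.39 ± 0.21 did not pass the test (limma adjusted p = 0.165), nor did -0.24 without that code (limma adjusted p = 0.22). It had 7865, 10254, 9002, 7918 and 7877 in Alk1 mutants, against 11414, 13817, 11889, 11212 and 12807 in wild types. All Alk1 mutants lay below all wild types, a fall of 30.0% in the mean (-0.51 ± 0.09 on the log2 scale, limma adjusted p = 0.000943). Eng mutants had 12272 to 16421 and Eng wild types 15307 to 17069, with 1 mutant inside the wild-type range (-0.23 ± 0.07, limma adjusted p = 0.0307). That Eng call was lost on leaving out any of 7 single libraries. Lama5 was also lower with IgG, at 6173, 4807 and 4207 in mutants, against 7847, 10405 and 11190 in wild types (-0.96 ± 0.25, limma adjusted p = 0.0227). This call was lost on leaving out any of 4 of the 6 IgG libraries.

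Lama2 encodes the alpha2 chain and had the lowest level of the members per kb of exon in every group (chromosome 10, 26980036 to 27619758). It had 1185, 1014, 1283, 677 and 350 in Smad4 mutants, against 1700, 2014, 1493, 1629 and 1507 in wild types. No Smad4 mutant reached the wild-type range, and the 2 mutants with code L146 were the lowest (-1.02 ± 0.30, limma adjusted p = 0.0248). Among libraries with no code the change was -0.58 ± 0.13 (limma adjusted p = 0.0178), and the call of the whole cohort was lost without mutant 4 (adjusted p = 0.0582), wild type 1 (adjusted p = 0.0505) or wild type 2 (adjusted p = 0.0585). Alk1 mutants had 1133 to 1708 and wild types 1643 to 2265, which overlapped, with a change of -0.48 ± 0.11 (limma adjusted p = 0.00632). In Eng mutants Lama2 stood at 1543 to 2695, against 1726 to 2668 in wild types, with no call. It fell with IgG to 1544, 1220 and 755 in mutants, against 2471, 1804 and 1978 in wild types (-0.88 ± 0.25, limma adjusted p = 0.0308), a call that leaving out any of 5 of the 6 libraries ended.

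Markers of pericytes, the mural cells of capillaries, moved with Lama2. The summed value of 12 pericyte markers was 16569 to 51444 in Smad4 mutants and 58004 to 81727 in wild types, and 6 of the 12 were called lower. Without code L146 it was 39405 to 51444 in Smad4 mutants and 62078 to 81727 in wild types. It was 62347 to 118401 in Alk1 mutants and 90386 to 114403 in wild types, with 3 lower, and 73471 to 131290 in Eng mutants and 77835 to 126532 in wild types, with none called. It was 39006 to 74362 in IgG-treated mutants and 77845 to 107487 in IgG-treated wild types, with 9 lower. None of the 12 was at 0 in any group, and the leading ones were Rgs5 and Pdgfrb. Over the 30 untreated libraries, after removing group means, Lama2 followed the pericyte markers with Pearson r = 0.93 and the endothelial markers with r = -0.63. With the mural marker level as a term in the fit, Lama2 changed by -0.14 in Smad4 mutants (limma adjusted p = 0.529) and by -0.18 in Alk1 mutants (limma adjusted p = 0.255). With the fibroblast level instead it changed by -0.21 (limma adjusted p = 0.622) and -0.32 (limma adjusted p = 0.189), and with the glial and neuronal level by -0.28 in Smad4 mutants (limma adjusted p = 0.484), so its call was lost with markers of several cell types. The pericyte sums did not overlap between mutants and wild types in the untreated and IgG-treated Smad4 comparisons. A mural term thus cannot be fully told apart from genotype there. In bulk libraries fewer cells of a type and less RNA per cell cannot be told apart.

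Other cell types moved as well. Beside these counts and those of pericyte markers, 15.8% of all genes were called lower in Smad4 mutants and 15.7% in Alk1 mutants. The share was 9.08% in Eng and 10.8% in IgG-treated mutants. Smooth muscle markers summed to 3210 to 6423 in Smad4 mutants and 7422 to 8690 in wild types, with 5 of 6 tested called lower, and to 5004 to 7115 in Alk1 mutants and 8243 to 9855 in wild types, also with 5 lower. Fibroblast markers summed to 5165 to 11641 in Smad4 mutants and 10500 to 16638 in wild types, with 5 of 9 tested lower and 1 higher, and to 6996 to 10354 in IgG-treated mutants and 12069 to 14707 in IgG-treated wild types, again with 5 lower and 1 higher. In Alk1 mutants they summed to 5954 to 9123, against 9047 to 10757 in wild types, with 4 of 9 lower. Without code L146 the smooth muscle sums were 6083 to 6423 in Smad4 mutants and 7973 to 8690 in wild types, and the fibroblast sums overlapped, at 8147 to 11641 in Smad4 mutants and 10500 to 16638 in wild types. Microglia markers summed to 10658 to 16967 in IgG-treated mutants and 17610 to 34802 in IgG-treated wild types, with 7 of 8 lower, and none of the 8 was called lower in the untreated cohorts. Of 11 neuron markers 9 were lower in Smad4 mutants, and 2 were lower and 1 higher in IgG-treated mutants. In Alk1 mutants 2 of 10 tested were lower. Of 10 astrocyte markers 2 were lower in Smad4 mutants and 3 in IgG-treated mutants. Oligodendrocyte markers were lower for 3 of 7 tested in Smad4 mutants. With the mural marker level in the fit Lama4 (0.61 and 0.55) and Lamc1 (0.56 and 0.61) kept their call in the Smad4 and Alk1 cohorts. The Smad4 call of Nid1 was lost with the mural level (0.31, limma adjusted p = 0.0873) and with the fibroblast level (0.27, limma adjusted p = 0.0961). That of Nid2 was lost with the fibroblast level (0.51, limma adjusted p = 0.0567). That of Lamb2 was lost with the mural, fibroblast and glial and neuronal levels (-0.17, -0.17 and -0.16, limma adjusted p = 0.14, 0.137 and 0.128). With IgG, the mural level left 1 of the 7 called members called and the fibroblast level none, and Lama4 stood at 0.45 and 0.29 under these terms.

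Lamb1, the beta1 chain (chromosome 12, 31265234 to 31329644), had 28225, 29561, 28474, 48998 and 46540 in Smad4 mutants, against 17642, 20227, 17509, 21187 and 18402 in wild types. All Smad4 mutants lay above the wild types, and the 2 with code L146 lay far above the other mutants. The change was 0.89 ± 0.16 (limma adjusted p = 0.00218), and 0.64 ± 0.07 without that code (limma adjusted p = 0.000975). Lamb1 had 30088, 33951, 35595, 35095 and 29625 in Alk1 mutants, against 20520, 24124, 22579, 21555 and 22870 in wild types. Again no library overlapped (0.56 ± 0.07, limma adjusted p = 0.000158). In the Eng cohort Lamb1 spanned 27530 to 30886 in mutants and 25592 to 28618 in wild types and was not called (0.10 ± 0.05, limma adjusted p = 0.152). With IgG it had 21560, 25100 and 28048 in mutants, against 18764, 17725 and 18238 in wild types (0.44 ± 0.08, limma adjusted p = 0.00625).

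Lamb2, the beta2 chain (chromosome 9, 108479736 to 108490530), was called in the untreated Smad4 cohort alone of the 4 comparisons. There it had 15029, 16492, 16420, 14469 and 16057 in Smad4 mutants, against 17791, 17555, 18080, 17629 and 17510 in wild types. All mutants lay below all wild types, by a small margin (-0.18 ± 0.05, limma adjusted p = 0.0196), and without code L146 the call was lost (-0.16, adjusted p = 0.118). Lamb2 averaged 16657 ± 2069 in Alk1 mutants and 16630 ± 719 in wild types (SD, n = 5 each), and 21056 ± 719 in Eng mutants and 20252 ± 675 in wild types. It averaged 18323 ± 2295 in IgG-treated mutants and 20288 ± 961 in IgG-treated wild types (SD, n = 3 each).

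Lamc1 encodes the gamma1 chain, the partner of nearly all vascular laminins (chromosome 1, 153218922 to 153332786). It had 55349, 58594, 57699, 80111 and 78461 in Smad4 mutants, against 34857, 39841, 36805, 40069 and 35276 in wild types. It had 58267, 77831, 80375, 71013 and 59352 in Alk1 mutants, against 38919, 45735, 43886, 39630 and 42980 in wild types. The mutants were higher in every library of both cohorts, by 0.80 ± 0.11 (limma adjusted p = 0.000441) and 0.71 ± 0.10 (limma adjusted p = 0.000285), and by 0.62 in the Smad4 libraries with no code. Lamc1 spanned 52641 to 61558 in Eng mutants and 47008 to 51868 in wild types, a change of 0.20 ± 0.06 (limma adjusted p = 0.022) that was lost on leaving out any of 3 single libraries. With IgG it spanned 50728 to 56054 in mutants and 38736 to 43120 in wild types (0.39 ± 0.06, limma adjusted p = 0.00359).

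Per kb of exon, alpha chains summed to 9624 ± 1049, beta chains to 9012 ± 1722 and gamma chains to 8987 ± 1504 in Smad4 mutants, against 6626 ± 422, 6398 ± 257 and 5330 ± 348 in wild types (SD, n = 5 each). In Alk1 mutants the sums were 9209 ± 746, 8585 ± 790 and 9435 ± 1362, against 7384 ± 313, 6777 ± 330 and 6047 ± 447 in wild types. All 3 class sums were higher in mutants than in wild types in both cohorts, beyond the SD of either group. Without code L146 the Smad4 sums were 8873 ± 141, 7762 ± 245 and 7899 ± 263 in mutants, against 6689 ± 290, 6324 ± 223 and 5330 ± 349 in wild types (SD, n = 3 each). Lama4 supplied 78.5% ± 3.87 of the alpha chain value in Smad4 mutants and 65.6% ± 2.39 in wild types, and without that code 75.8% ± 1.15 in mutants and 64.4% ± 2.0 in wild types. That share was 82.4% ± 1.35 in Alk1 mutants and 68.2% ± 1.84 in wild types, 72.3% ± 0.740 in Eng mutants and 66.4% ± 1.06 in wild types, and 77.9% ± 1.95 in IgG-treated mutants and 62.6% ± 1.13 in IgG-treated wild types. Lama5 supplied 7.79% ± 2.62 in Smad4 mutants and 14.2% ± 2.70 in wild types, and 8.18% ± 0.630 in Alk1 mutants and 14.5% ± 0.852 in wild types. Lama1, the alpha1 chain, supplied 8.86% ± 1.39 in Smad4 mutants and 13.5% ± 1.39 in wild types. Its own value was not called there (-0.08 ± 0.08, limma adjusted p = 0.48), so a lower share is not a lower level. In Alk1 mutants Lama1 supplied 6.14% ± 0.751, against 11.8% ± 1.66 in wild types. Lamc1 supplied over 88% of the gamma chain value in every library.

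**Figure D2:**
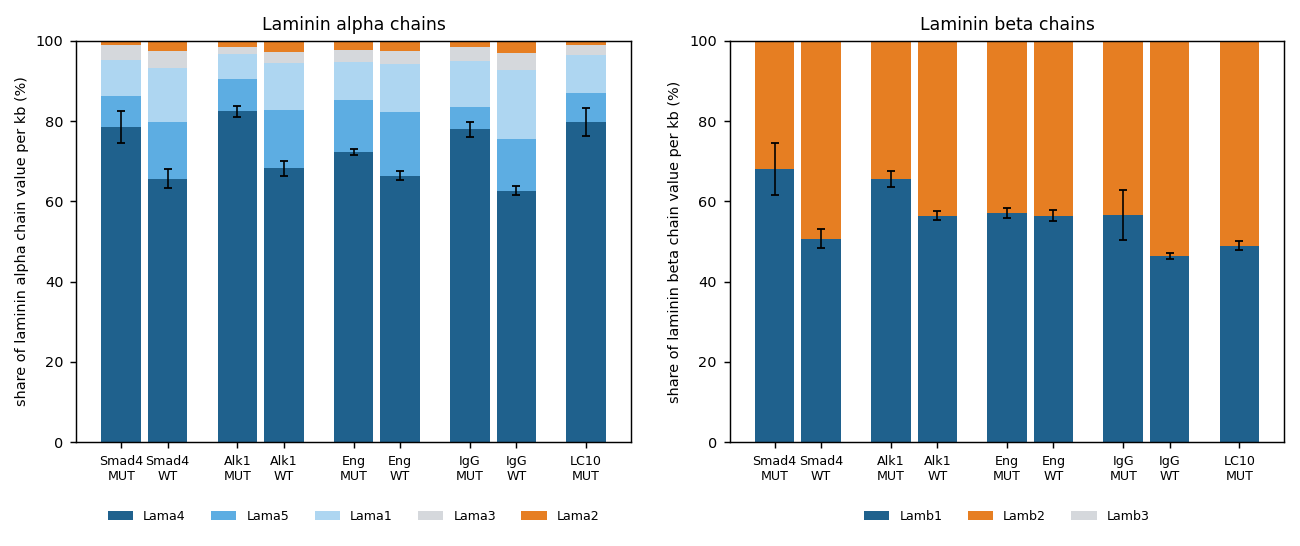
Mean share (y axis, %) of each laminin alpha chain (left) and beta chain (right) in the summed value per kb of its class, by group, with error bars of 1 SD on the lowest segment. The dark lower segment is Lama4 or Lamb1, and it is taller in mutants than in wild types for both chains in the Smad4, Alk1 and IgG pairs and for Lama4 in the Eng pair (72.3% against 66.4%).

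Nid1, one of the 2 nidogens (chromosome 13, 13437551 to 13512269), spanned 49119 to 66650 in Smad4 mutants and 35073 to 42785 in wild types (0.50 ± 0.10, limma adjusted p = 0.00386, and 0.39 without code L146). It spanned 47903 to 51169 in IgG-treated mutants and 39488 to 42814 in IgG-treated wild types (0.27 ± 0.06, limma adjusted p = 0.01). In both pairs no library overlapped. Nid1 was not called in Alk1 mutants, at 53150 to 65034 against 45915 to 55967 in wild types (0.22 ± 0.08, limma adjusted p = 0.0656), nor in Eng mutants, at 57584 to 69250 against 53538 to 65046 in wild types.

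Nid2, the other nidogen (chromosome 14, 19751265 to 19811787), had the largest rise of the members in the Smad4, Alk1 and Eng cohorts. It had 21788, 23920, 21652, 40954 and 40152 in Smad4 mutants, against 13780, 15003, 13898, 15510 and 13851 in wild types. The code L146 mutants were again highest, and all mutants exceeded all wild types (0.98 ± 0.18, limma adjusted p = 0.0025). Without that code the change was 0.66 ± 0.07 (limma adjusted p = 0.000575), and within it 1.47 ± 0.07 (limma adjusted p = 0.00018). Nid2 had 25024, 38348, 37863, 33109 and 25863 in Alk1 mutants, against 14227, 18132, 16905, 15919 and 16514 in wild types. It had 23730, 22238, 24577, 23342 and 24509 in Eng mutants, against 19322, 21063, 18450, 18615 and 20699 in wild types. Neither cohort overlapped, and the changes were 0.95 ± 0.13 (limma adjusted p = 0.000144) and 0.27 ± 0.05 (limma adjusted p = 0.00145). With IgG it had 16051, 18740 and 22956 in mutants, against 14610, 14697 and 14921 in wild types (0.37 ± 0.11, limma adjusted p = 0.0352), a call lost on leaving out any of 5 of the 6 libraries and in a fit of the IgG libraries alone (limma adjusted p = 0.0636).

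Hspg2 encodes perlecan (chromosome 4, 137468769 to 137570630). It had 69294, 76285, 90619, 72675 and 78215 in Smad4 mutants, against 53921, 65307, 53287, 55048 and 47542 in wild types. No mutant overlapped a wild type (0.49 ± 0.10, limma adjusted p = 0.00333, and 0.45 without code L146). Alk1 mutants had 55512 to 104152 and wild types 43478 to 73732, a wide overlap with no call (0.43 ± 0.18, limma adjusted p = 0.0892). This turned into a call without Alk1 mutant 5 (adjusted p = 0.0425) or wild type 2 (adjusted p = 0.0428). Among the Alk1 libraries with no code it was 0.50 (limma adjusted p = 0.114), and with their column number as a block the same change was called (limma adjusted p = 0.0223). Hspg2 had 76190, 74370, 83644, 84395 and 88826 in Eng mutants, against 72060, 71350, 70522, 70166 and 70067 in wild types. All Eng mutants were above the tight wild-type group (0.20 ± 0.05, limma adjusted p = 0.0187), and without mutant 4 the adjusted p was 0.0503. With IgG it had 64108, 58859 and 63097 in mutants, against 65071, 54588 and 53858 in wild types, with no call (limma adjusted p = 0.47).

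Agrn encodes agrin and was the member with the highest level per kb in every group but the Alk1 mutants (chromosome 4, 156165290 to 156197488). It had 54259, 57119, 50187, 58162 and 51980 in Alk1 mutants, against 76539, 95127, 78127, 79549 and 82446 in wild types. Alk1 mutants lay well below their wild types (-0.60 ± 0.08, limma adjusted p = 0.000157). Agrn had 83015, 83291, 80873, 87602 and 91327 in Eng mutants, against 100927, 104388, 100568, 97604 and 109175 in wild types. All Eng mutants were lower (-0.27 ± 0.05, limma adjusted p = 0.00282). The endothelial markers also separated in this cohort, with a summed value of 701396 to 744962 in Eng mutants and 745215 to 845922 in wild types and 6 of 14 called lower, and their part in the fall was not tested. In Smad4 mutants Agrn spanned 71477 to 82016, against 79452 to 94802 in wild types, and was not called (-0.15 ± 0.08, limma adjusted p = 0.136, and -0.12 without code L146). With IgG it spanned 76727 to 102488 in mutants and 92052 to 97665 in wild types, with no call (limma adjusted p = 0.47).

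**Figure D3:**
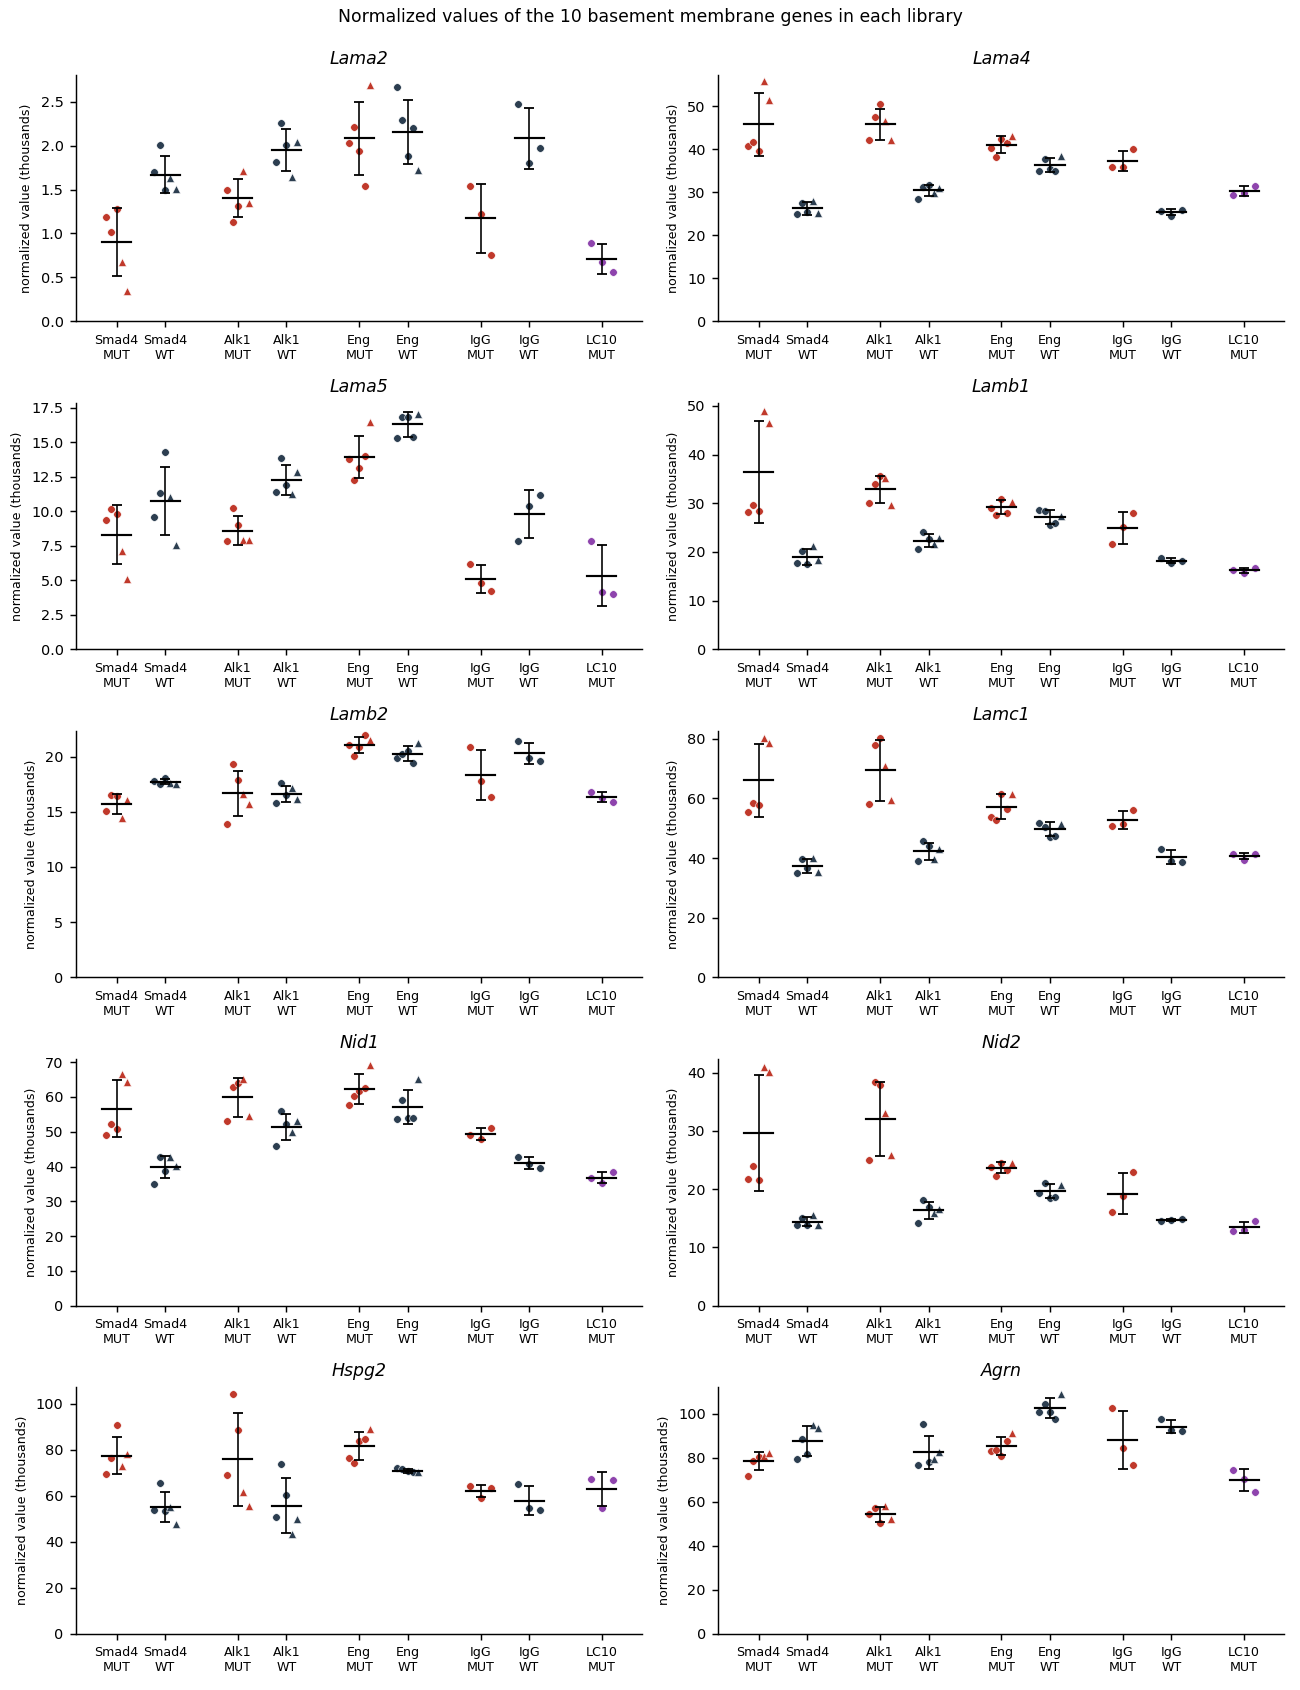
Normalized value (y axis, from 0, in k units) of each member in each of the 39 libraries, by group, with bars for the mean ± SD. LC10 libraries stand as deposited, on the scale of their own table. Triangles are libraries with code L146, L219 or L216 and circles all others. For Lama4, Lamc1 and Nid2 the red mutant points of the Smad4 and Alk1 cohorts lie wholly above the dark wild-type points, and for Agrn the Alk1 mutants, at 50187 to 58162, lie wholly below.

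By level per kb the order was Agrn, Nid1, Lamc1 and Lama4 in Smad4 mutants and in every other group except the Alk1 mutants, where Nid1, Lamc1 and Lama4 preceded Agrn. Lama5 and Lama2 came last in all groups. Neighbours in this order often overlapped, for example Agrn and Nid1 at 9165 to 10516 and 8064 to 10942 per kb in Smad4 mutants. Hspg2 stood lower per kb than its raw value would place it, its 14.2 kb of exon being the longest of the members, with 4874 to 6374 in Smad4 mutants and 3344 to 4594 in wild types. Together the 10 members made up 1.21% ± 0.0855 of the library total in Smad4 mutants and 0.957% ± 0.0443 in wild types (SD, n = 5 each), and without code L146 1.16% ± 0.0576 in mutants and 0.956% ± 0.0532 in wild types (SD, n = 3 each). Their share was 1.14% ± 0.0934 in Alk1 mutants and 1.01% ± 0.0818 in wild types, 1.02% ± 0.0444 in Eng mutants and 0.968% ± 0.0252 in wild types, and 1.08% ± 0.0313 in IgG-treated mutants and 0.992% ± 0.0244 in IgG-treated wild types. The ranges of mutants and wild types overlapped in the Alk1 and Eng cohorts.

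Ratios within a library do not depend on how that library was scaled. Lama4:Lama5 averaged 6.08 ± 2.74 in Smad4 mutants and 2.54 ± 0.541 in wild types, 5.38 ± 0.472 in Alk1 mutants and 2.5 ± 0.173 in wild types, and 2.97 ± 0.227 in Eng mutants and 2.23 ± 0.0754 in wild types (SD, n = 5 each). No library overlapped in any of the 3 cohorts. In each, the two-sided exact permutation p was 0.00794, the smallest that 5 against 5 allows, and 0.0127 adjusted over 16 ratio tests. The IgG pair stood at 7.60 ± 1.85 in mutants and 2.65 ± 0.535 in wild types without overlap (exact p = 0.1, the smallest that 3 against 3 allows).

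Lamb1:Lamb2 averaged 2.34 ± 0.756 in Smad4 mutants and 1.07 ± 0.101 in wild types, and 1.99 ± 0.168 in Alk1 mutants and 1.34 ± 0.0633 in wild types (exact permutation, adjusted p = 0.0127 each). In Eng mutants it was 1.39 ± 0.0751, against 1.34 ± 0.0784 in wild types (exact p = 0.413). With IgG it was 1.39 ± 0.341 in mutants and 0.9 ± 0.0268 in wild types, without overlap (exact p = 0.1). Nid1:Nid2 was lower, at 2.00 ± 0.359 in Smad4 mutants and 2.77 ± 0.135 in wild types and at 1.91 ± 0.228 in Alk1 mutants and 3.15 ± 0.0705 in wild types (exact permutation, adjusted p = 0.0127 each). In the Eng cohort it overlapped, at 2.63 ± 0.159 in mutants and 2.91 ± 0.145 in wild types (exact permutation, adjusted p = 0.0346), and leaving out any of 6 single libraries lost the call. With IgG it overlapped at 2.62 ± 0.419 in mutants and 2.78 ± 0.142 in wild types (exact p = 0.6). Hspg2:Agrn averaged 0.984 ± 0.0868 in Smad4 mutants and 0.632 ± 0.0894 in wild types, 1.4 ± 0.372 in Alk1 mutants and 0.673 ± 0.102 in wild types, and 0.956 ± 0.0545 in Eng mutants and 0.692 ± 0.0312 in wild types (exact permutation, adjusted p = 0.0127 each). The mutants were above the wild types in every library of these 3 cohorts. With IgG the groups overlapped, at 0.715 ± 0.0996 in mutants and 0.614 ± 0.0457 in wild types (exact p = 0.2).

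**Figure D4:**
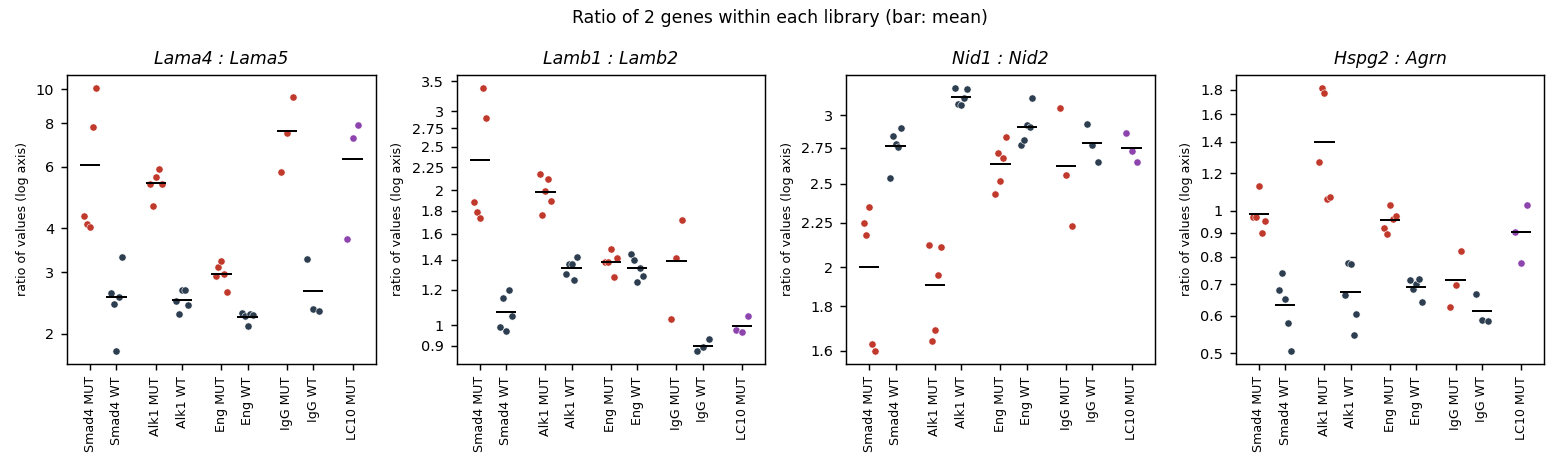
Ratio of the normalized values of 2 genes within each library (y axis, log scale), by group, with bars for the mean. Lama4:Lama5 and Hspg2:Agrn are higher in all mutants than in all wild types of the Smad4, Alk1 and Eng cohorts, while Lamb1:Lamb2 overlaps in the Eng cohort.

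The size of the changes differed between cohorts for 5 members, tested as a difference of 2 mutant effects in a joint limma fit of the 30 untreated libraries. The Smad4 effect exceeded the Eng effect for Lamb1 by 0.79 ± 0.16 (adjusted p = 0.00161), Nid2 by 0.71 ± 0.20 (adjusted p = 0.0262), Lama4 by 0.61 ± 0.11 (adjusted p = 0.000296) and Lamc1 by 0.60 ± 0.14 (adjusted p = 0.00533). That is 4 of 10 members, against 8.40% of all genes. With only libraries that had no code or code L210, the differences for Nid2 (0.38, adjusted p = 0.281) and Lamc1 (0.44, adjusted p = 0.1) were no longer called. That for Nid2 was also lost without Smad4 mutant 4 (adjusted p = 0.0603), Smad4 mutant 5 (adjusted p = 0.0626) or Eng wild type 2 (adjusted p = 0.0502). The Alk1 effect exceeded the Eng effect for Nid2 by 0.68 ± 0.20 (adjusted p = 0.021), Lamc1 by 0.50 ± 0.14 (adjusted p = 0.0125) and Lama4 by 0.41 ± 0.11 (adjusted p = 0.00825), and was below it for Agrn (-0.33 ± 0.09, adjusted p = 0.0136), again 4 of 10 members, against 15.7% of all genes. Between Smad4 and Alk1 only Agrn was called (0.44 ± 0.09, adjusted p = 0.000979), 1 of 10 beside 17.1% of all genes. No member was called between the untreated and IgG-treated Smad4 effects (limma), where 0.00722% of all genes were called and 6.70% had an unadjusted p under 0.05. For Lamc1, Nid2 and Hspg2 the unadjusted p was under 0.05 there too. Division by library totals moved the median of all genes by up to -0.11 in the Smad4 minus Eng differences, against -0.01 with the values as deposited, and the 9 called differences were called under it.

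Within groups, Lama4, Lamb1, Lamc1, Nid1 and Nid2 varied together. Across the 30 untreated libraries, with group means removed, their 10 pairs had Pearson r of 0.83 to 0.95 (median 0.915), and the other 35 pairs of members -0.60 to 0.65 (median 0.26). The genes of a library share its depth and cell make-up, which differed between libraries, so r is a description. The 2 Smad4 mutants with code L146 were the highest of their group in all 5 genes. In settings chosen after seeing the data, the 10 pairs had r of 0.83 to 0.93 over 28 libraries with the means of each group and code removed, and the other 35 pairs -0.45 to 0.79. Without the L146 libraries the 10 pairs had r of 0.76 to 0.92 over 26 libraries, and the other 35 pairs -0.36 to 0.82, so the ranges of the pairs then met. The r values that follow are over all 30 untreated libraries, code L146 included. The Smad4 mutants with that code also had the highest endothelial marker sums of their group (677173 and 713148, against 558735 to 613258 in the others). The same 5 genes had r of 0.59 to 0.69 with the endothelial markers. Their r was -0.74 to -0.65 with the fibroblast markers and -0.72 to -0.60 with the smooth muscle markers. With the pericyte, astrocyte, neuron, oligodendrocyte and microglia markers it was also negative, from -0.65 to -0.28. The genes most like Lama4 out of 13500 were Col4a2 (r = 0.96) and Col4a1 (r = 0.94), the collagen IV chains of this membrane, and the glycolytic enzyme gene Pkm (r = 0.93). Lamb1, Lamc1 and Nid2 also had Col4a1 and Col4a2 among their first 3, with r of 0.90 to 0.93. The melanoma cell adhesion molecule gene Mcam was also close to Lamb1 (r = 0.92). Nid1 was closest to Megf6 (r = 0.90). Outside this set, Lama2 was closest to Daam2 (r = 0.97), Axl (r = 0.96) and Cspg4 (r = 0.95), the last a pericyte marker. Hspg2 was closest to Prrc2b and Ubr4 (r = 0.93 each), Agrn to Arhgap27 (r = 0.88), Lamb2 to Castor1 (r = 0.87) and Lama5 to C3 and Ppp1r10 (r = 0.78 each).

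**Figure D5:**
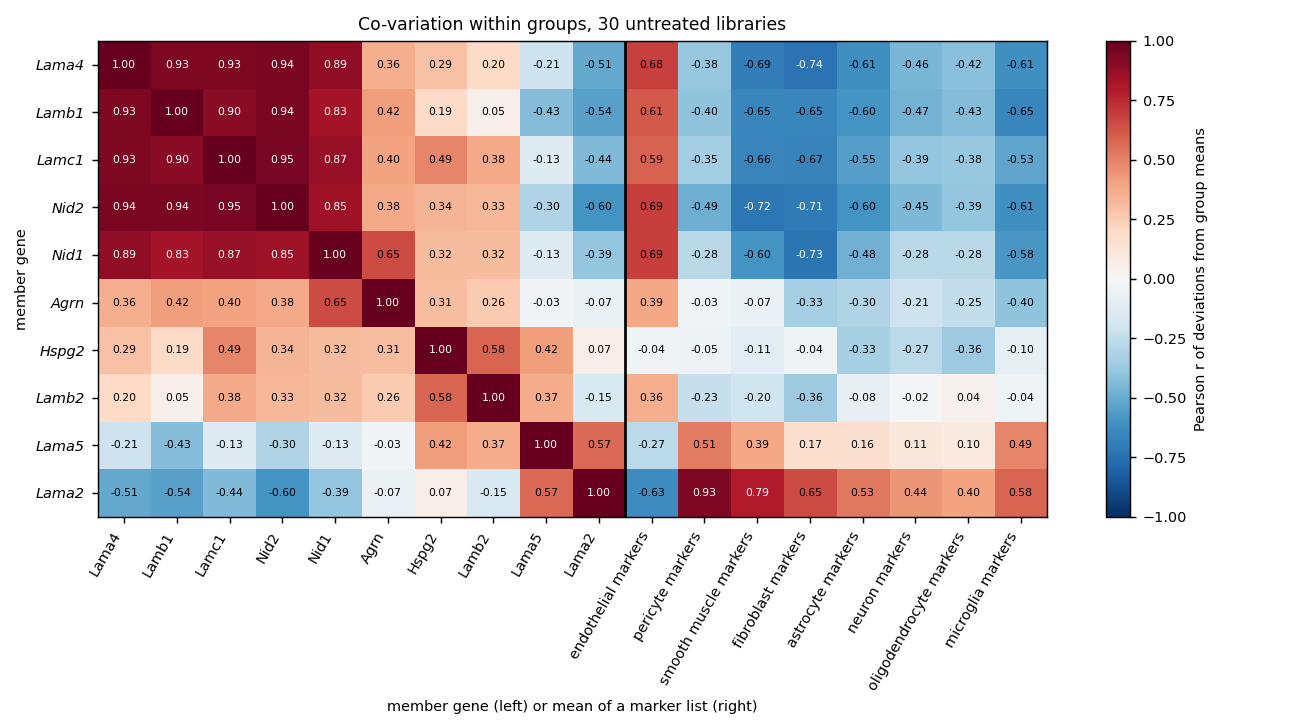
Pearson r of deviations from group means over the 30 untreated libraries, for pairs of members (left of the line) and for each member with the mean of a marker list (right of it). Lama4, Lamb1, Lamc1, Nid2 and Nid1 form a block of 0.83 to 0.95 that lies at 0.59 to 0.69 with the endothelial markers. The block is negative with every other marker list, at -0.74 to -0.65 with the fibroblast markers. Lama2 reaches 0.93 with the pericyte markers.

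Other genes of the basement membrane were read from lists of collagens, receptors, matrix binders and heparan sulfate enzymes. Of all genes, 17.2% were called higher and 15.8% lower in Smad4 mutants, and 17.5% and 15.7% in Alk1 mutants. These shares, which stand beside the counts of every list, were 12.4% and 9.08% in Eng and 13.2% and 10.8% in IgG-treated mutants. Of 8 basement membrane collagens, 3 were higher and 4 lower in Smad4 mutants, 2 and 2 in Alk1 mutants, 3 and 1 in Eng mutants, and 3 and 2 with IgG, with median changes of -0.73, -0.13, -0.13 and -0.48. Col4a1 was called higher in all 4, by 0.92, 0.42, 0.40 and 0.56 (limma adjusted p = 0.000861, 0.00568, 0.00061 and 0.006). Col18a1, whose collagen carries heparan sulfate and releases endostatin, went opposite ways, by 1.97 ± 0.09 in Smad4 mutants (89929 to 110129, against 20808 to 28162 in wild types, limma adjusted p = 1.6e-07) and by -0.91 ± 0.08 in Alk1 mutants (11678 to 15452, against 23841 to 27383 in wild types, limma adjusted p = 6.66e-06). The Smad4 effect minus the Alk1 effect was 2.88 ± 0.12 (limma adjusted p = 7.07e-16). With IgG it was higher again, by 1.92 ± 0.13 (limma adjusted p = 9.04e-05). Among the other laminin chains Lama1 was lower in Alk1, Eng and IgG-treated mutants, by -0.62, -0.29 and -0.35 (limma adjusted p = 0.00231, 0.00037 and 0.027). Lamb3 did not pass the filter, at 7.76 ± 5.26 in Smad4 mutants and 4.43 ± 3.58 in wild types (SD, n = 5 each).

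Of 13 receptors tested, 5 were higher and 4 lower in Smad4 mutants, 6 and 3 in Alk1 mutants, 3 and 1 in Eng mutants, and 4 and 3 with IgG, with median changes of 0.01, 0.06, 0.08 and 0.00. Mcam, a receptor for alpha4 laminin, was the one with the smallest adjusted p in Alk1, Eng and IgG-treated mutants and was higher in all 4 comparisons, by 1.5, 1.23, 0.62 and 0.91. It spanned 19087 to 38147 in Smad4 mutants and 8169 to 9953 in wild types, and 21937 to 29910 in Alk1 mutants and 9178 to 12950 in wild types. The integrin gene Itga2 was lower in Smad4, Alk1 and IgG-treated mutants (-0.96, -1.03 and -0.69), Itga6 was higher in Alk1 mutants (0.73), and Lrp4, an agrin receptor, was lower in Alk1 and Eng mutants (-0.67 and -0.31), all called by limma. Of 14 matrix proteins that bind laminin or perlecan, 6 were higher and 3 lower in Smad4 mutants, 4 and 5 in Alk1 mutants, 2 and 1 in Eng mutants, and 3 and 2 with IgG, with median changes of -0.03, -0.16, -0.02 and 0.09. Tinagl1 was higher in all 4 (1.06, 0.68, 0.74 and 0.89). Ntn4, a laminin-related netrin, was lower in Alk1 mutants (-1.33 ± 0.16, limma adjusted p = 6.69e-05), and Vwa1, which binds perlecan, was lower in all 4 comparisons (-0.56, -0.41, -0.15 and -0.50).

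Of 19 enzymes that build or trim heparan sulfate, 6 were higher and 2 lower in Smad4 mutants, 3 and 2 in Alk1 mutants, 1 and 2 in Eng mutants, and 4 and 4 with IgG, with median changes of 0.06, -0.03, -0.01 and 0.03. The shares of all genes called higher and lower were 17.2% and 15.8% in Smad4 and 17.5% and 15.7% in Alk1 mutants. They were 12.4% and 9.08% in Eng and 13.2% and 10.8% in IgG-treated mutants. Sulf2, which removes 6-O-sulfate at the cell surface, was higher in all 4 comparisons, by 1.39, 0.64, 1.48 and 0.97. It spanned 2627 to 3377 in Eng mutants and 928 to 1426 in wild types. Xylt2, which starts the sugar chain, was lower in all 4 comparisons (-0.44, -0.48, -0.21 and -0.22). Xylt1, which does the same step, was higher in Alk1 mutants (1.62 ± 0.20, limma adjusted p = 9.48e-05) and lower in IgG-treated mutants (-0.66 ± 0.17, limma adjusted p = 0.0189).

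Levels under the angiopoietin-2 inhibitor were set beside IgG on a common median-of-ratios scale, with no test, since treatment and table cannot be told apart. Lama4 spanned 34868 to 37237 in LC10-treated mutants, 32795 to 36567 in IgG-treated mutants and 22481 to 23693 in IgG-treated wild types. Lamc1 spanned 46872 to 49133 in LC10-treated mutants, 46404 to 51215 in IgG-treated mutants and 35342 to 39627 in IgG-treated wild types. Both mutant groups thus overlapped and lay above the wild types. Only Lamb1 and Hspg2 of the 10 members did not overlap between the mutant groups, while 18.4% of all genes did not, so this is near the background. Lamb1 was 18623 to 19645 in LC10-treated mutants, below 19723 to 25627 in IgG-treated mutants and above 16232 to 17244 in IgG-treated wild types. Hspg2 was 64806 to 79821 in LC10-treated mutants, above 53879 to 58644 in IgG-treated mutants and 49138 to 59800 in IgG-treated wild types. The ratio Lama4:Lama5, which needs no common scale, was 3.74, 7.26 and 7.91 in LC10-treated mutants, 5.81 to 9.51 in IgG-treated mutants and 2.32 to 3.27 in IgG-treated wild types.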

How the data were processed

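Bead-purified brain endothelial cells gave RNA for TruSeq libraries, per the labels' protocols. The 5 deposited tables (each untreated cohort, IgG, LC10) hold normalized signal and no whole counts, and the submitters' processing notes name mm10. How reads were aligned, counted and normalized is not given in the sources used here. The plan named limma for normalized values and a count test for whole-number counts. The values are not whole, so limma 3.58.1 in R 4.3.3 was used on log2 of the value plus 2. The added 2 makes changes of low genes smaller, and the fit was tested on simulated data. A gene entered when 5 or more libraries (3 with antibody) reached 20, and the fit used an intensity trend. Tables were normalized separately, and each mutant was set against the wild type of its own table. Differences of effects came from joint fits over tables, and the IgG fit took part of its spread from the LC10-treated mutants of another table. Lengths and positions are from GENCODE M21, levels per kb use all exons of a gene, and sequences are from RefSeq. Depth, inferred from the spacing of low values, was 11.09 to 30.85 M fragments per library (M, mega). Columns of untreated cohorts match samples by group only, so their numbers only name libraries. Column numbers 1 to 3 recur in both genotypes of the libraries with no code. Their deviations from group means correlated at 0.157, 0.187 and 0.108 between same-numbered Alk1 mutants and wild types, which meets the rule used for pairing (each over 0.1), and at -0.081, 0.17 and -0.097 for Smad4, which does not. Further, 3 columns of other libraries were not used. The members and lists were chosen with earlier results of these data known. Genes named outside the members are up to 3 per list and comparison with the smallest adjusted p, and the 3 most alike each member. Scaling, pseudocount, filter, marker terms, library codes and single libraries were varied.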

Additional observations from a re-analysis of the deposited data

Results flagged for a closer look

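The mutant effects of 5 members differed between cohorts by a limma contrast of the 2 effects, with the values as deposited. The Smad4 effect minus the Eng effect was 0.61 for Lama4, 0.79 for Lamb1, 0.60 for Lamc1 and 0.71 for Nid2 on the log2 scale. The Alk1 effect minus the Eng effect was 0.41 for Lama4, 0.50 for Lamc1, 0.68 for Nid2 and -0.33 for Agrn. The Smad4 effect minus the Alk1 effect was 0.44 for Agrn. Each cohort has its own table, and the Alk1 pups also differ from the others in tamoxifen dose, day and age, which cannot be told apart from genotype. A test of the gap between 1 library and the rest of its group found none in 60 groups of 5 libraries. It cannot see a pair of libraries that lie together, such as the Smad4 mutants with code L146, which had 40954 and 40152 for Nid2, against 21652 to 23920 in the other Smad4 mutants.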

How the results depend on the processing

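Over 750 results of single members outside the leave-outs, 685 stayed on their side of the threshold, 47 lost a call and 16 gained one. A change of sign between 2 results without a call was counted as kept, as for Lama5 in Smad4 mutants (-0.39, up to 0.09). In 2 results called with the main settings the direction turned round, and the call was lost. Those were Lama2 (0.40) and Nid2 (-0.28) with IgG and the fibroblast marker level as a term. Leaving out 1 library kept 1072 of 1120, lost 31, gained 17 and turned no called result round. Some results without a call changed sign there, such as Lama2 in Eng mutants, at -0.15 to 0.05. Where a setting changed a result, the cause was not tested, and the marker terms also use up a degree of freedom.

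With the mural, fibroblast or glial marker level in the fit, the genes called were 1840, 2026 and 2230 for Smad4, with 0 members lower each time, and 388, 8 and 1954 for IgG, with 1, 0 and 3 members higher and 0, 0 and 1 lower. For Alk1 they were 1979 (mural) and 1877 (fibroblast), and for Eng 1 member was lower (mural). Libraries with no code alone, 3 against 3, gave 2461 genes and 1 member lower for Smad4 and 2005 genes for Alk1. Their ratios (log2 differences in Smad4 and Alk1) could not pass the test at this size, at 0.89 and 1.07 for Lama4:Lama5, 0.80 and 0.55 for Lamb1:Lamb2, -0.27 and -0.79 for Nid1:Nid2 and 0.57 and 1.12 for Hspg2:Agrn. Dropping the intensity trend left 1 member lower for Eng and 0 for IgG. The joint fit of untreated cohorts gave 1611 genes for Eng, with 0 members higher and 1 lower. For the differences, library totals gave 2 members for Smad4 minus Alk1, and a pseudocount of 8 gave 0 genes for Smad4 minus IgG. Libraries with no code or code L210, a setting chosen after seeing the data like all fits within a code, gave 1461 genes for Smad4 minus Alk1, and 415 genes and 2 members for Smad4 minus Eng. Trimmed-mean factors were planned and not run.

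Without 1 library at a time, genes called ran from 3358 to 5547 (Smad4), 3835 to 4833 (Alk1), 2426 to 3142 (Eng) and 1777 to 3795 (IgG, lowest without mutant 2). Members higher ran from 6 to 6, 4 to 5, 3 to 4 and 4 to 5, and members lower from 1 to 2, 3 to 3, 1 to 2 and 0 to 3. Differences ran from 2002 to 2733 genes and 1 to 2 members for Smad4 minus Alk1, 796 to 1812 and 3 to 6 for Smad4 minus Eng, 1662 to 2766 and 4 to 5 for Alk1 minus Eng, and 0 to 2 and 0 to 0 for Smad4 minus IgG. The ratio differences for Smad4, Alk1, Eng and IgG ran from 0.97 to 1.30, 1.07 to 1.16, 0.38 to 0.45 and 1.33 to 1.69 for Lama4:Lama5. For Lamb1:Lamb2 they were 0.92 to 1.16, 0.53 to 0.60, 0.02 to 0.07 and 0.43 to 0.79. For Nid1:Nid2 they were -0.54 to -0.41, -0.78 to -0.68, -0.17 to -0.12 and -0.22 to 0.01, and for Hspg2:Agrn 0.57 to 0.71, 0.92 to 1.12, 0.44 to 0.49 and 0.11 to 0.31.

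With the replicate number as a replicate block, the IgG comparison called 3862 genes, 5 members higher and 2 lower, and no member call changed. Same-numbered mutants and wild types had correlated deviations of only 0.043, 0.016 and -0.067, so the numbers do not pair them. With the column number as a replicate block, chosen after seeing the data, the libraries with no code gave 1553 genes and 0 members lower for Smad4, where the numbers did not pair the libraries, and 2174 genes, 5 members higher and 3 lower for Alk1. In the Eng cohort no paired analysis was possible, because column numbers are not shared between genotypes there. The main Alk1 test left column numbers out, although those of the libraries with no code met the pairing rule. Depth limits low genes most, such as Lamb3, which was not tested.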
